A study of Mus musculus with 28 samples.

Results

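The locus described here is a 180 kb stretch of mouse chromosome 6, from 122540000 to 122720000 in build mm9, chosen by position because it holds Gdf3, Dppa3 and Nanog with the DNA around them. Overlapping ATAC-seq peaks of all libraries were merged into regions, and a region counts as called in each library that has 1 or more peaks in it. The stretch held 36 of the 172177 regions of the series. Of these, 25 were called in at least 2 libraries, against 109954 in the whole series, and 11 were called in 1 library. No region crossed either edge of the stretch.

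ATAC-seq uses a transposase to cut accessible DNA, so a peak marks chromatin that was open in many of the cells. All cells came from mouse embryonic fibroblasts (MEFs) of embryonic day 12.5, on a V6.5 129XBI/6 background, that lacked Tet2 (Tet2-/-). They also carried the reprogramming factors Oct4, Klf4, Sox2 and Myc (OKSM) under doxycycline control, with rtTA. The 7 groups had 4 libraries each. They were untreated MEFs with no sorting named (day 0), and cells reprogrammed for 5 or 10 days after transduction with a retrovirus for Tet2-E (a mutant the series describes as stalling), for Tet2-WT, or with the empty vector (pMXs). The reprogramming cells grew on Mito-C-treated MEF feeders in medium with doxycycline, LIF and inhibitors of MEK and GSK3, and were sorted on SSEA1-RFP. The Tet2 deletion is common to all 7 groups, MEFs included. The induced factors, the transduction, the feeders and the sort are common to every reprogramming group, empty vector included, and cannot be told apart from time when a later day is set against MEFs. The labels do not say that replicates came from separate embryos or cultures, so every p-value below rests on library-to-library spread that may be only technical.

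Nanog encodes a homeodomain transcription factor of the pluripotent cell. Dppa3 (also called Stella) encodes a maternal-effect protein known for shielding DNA methylation from TET-dependent loss in the early embryo, and Gdf3 encodes a TGF-beta family ligand. The 3 genes neighbour each other, are expressed together in embryonic stem cells and are silent in fibroblasts. In embryonic stem cells Nanog is known to have enhancers both close to its promoter and far upstream, towards Dppa3. In the RefSeq gene table (GRCm38.p6, used for order only) the protein-coding genes run Apobec1, Gdf3, Dppa3, Nanog and Slc2a3 along the chromosome. Positions below are therefore distances of a region's centre from the Nanog start, taken as 122657500 in mm9, with Gdf3 and Dppa3 on the upstream side. The mm9 positions of Gdf3 and Dppa3 and of exons were not used here, so no region is assigned to those genes or called exonic or intronic.

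A promoter sequence from RefSeq was matched for 1 of the 3 genes, Nanog (gene ID 71950). It is shown because the region over the Nanog start was called in only 5 of 28 libraries, while regions farther away were called in every reprogramming library. The line gives the 250 bases before the RefSeq start, 5′ to 3′ (GRCm38.p6, plus strand, chr6:122707239-122707488), with a composite Oct-Sox motif in capitals.
Nanog promoter: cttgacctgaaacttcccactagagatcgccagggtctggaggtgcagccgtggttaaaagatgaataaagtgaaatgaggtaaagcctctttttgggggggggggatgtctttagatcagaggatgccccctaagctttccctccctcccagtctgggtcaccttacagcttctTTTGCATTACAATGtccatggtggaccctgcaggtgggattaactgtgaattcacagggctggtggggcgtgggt
Motifs of the 4 induced factors were searched on both strands. The composite of Oct4 and Sox2, which is CATTGT and ATGCAAA with 1 free base between them, matched on the minus strand, from 75 to 62 bases before the start, and overlaps the matches of its parts. Of genes, 12.2% held CATTGT and 4.65% held ATGCAAA. Among 27025 genes with such a 250-base sequence, 1 gene, Nanog itself, held this composite (0.0037%). Only exact matches were counted, with no mismatch outside the free base, so Oct-Sox sites in other letters are not in this share. A Klf motif, GGGNGTGG, matched from 10 to 3 bases before the start, and 17.9% of genes held it. The Myc E-box, CACGTG, was not in these letters, and 6.86% of genes held it. A match describes letters only, and the sequence comes from another build than the peaks.

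Relative depth differed between the stages, and with it the ease of calling a region. The background pileup, the commonest local background in a library's peak list, ranged from 0.394 to 0.66 in MEFs, from 0.746 to 1.037 at day 5 and from 0.361 to 0.768 at day 10. Lists held from 27918 to 72332 peaks. Of the 25 regions called in at least 2 libraries, MEF libraries called 10.8 ± 1.71 (SD, n = 4). At day 5 Tet2-E libraries called 14 ± 3.16, Tet2-WT libraries 14.5 ± 2.08 and empty vector libraries 14.2 ± 1.89 (SD, n = 4 each). At day 10 they called 12.2 ± 2.75, 11.8 ± 2.63 and 8.5 ± 2.38 in the same order. The day 10 ranges overlapped, at 9 to 15 for Tet2-E, 9 to 14 for Tet2-WT and 7 to 12 for the empty vector. The empty vector libraries of day 10 also had a mean background pileup of 0.476 ± 0.0384, against 0.558 ± 0.18 for Tet2-E and 0.533 ± 0.0989 for Tet2-WT (SD, n = 4 each). These totals are a description with no test, and the part of depth in them was not tested.

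**Figure D1:**
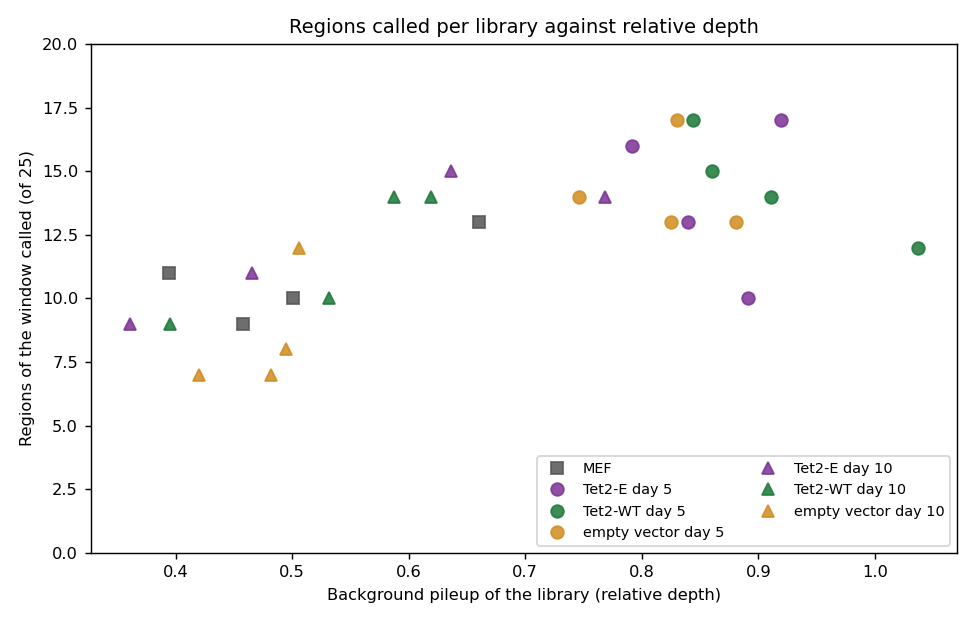
Number of the 25 regions called in at least 2 libraries that each library called, against the background pileup of that library; each symbol is 1 of 28 libraries (squares MEF, circles day 5, triangles day 10). Day 5 libraries lie to the right, at 0.746 or more, and 3 of the 4 empty vector libraries of day 10 called 7 or 8 regions.

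Against MEFs, the locus held both regions that opened and regions that closed. At day 5, 4 of 24 tested regions were gained, that is, called in a larger share of libraries (Fisher's exact test, Benjamini-Hochberg adjusted p under 0.05 over all regions of the series), and 2 were lost. That is 16.7% gained and 8.33% lost, beside 9.81% gained and 16.1% lost over 99090 regions of the series. At day 10, 4 of 23 tested regions were gained and 3 lost, or 17.4% and 13%, beside 5.66% gained and 22.6% lost over 89226 regions. The median difference in calling share was 16.7 percentage points in the locus at day 5, against 0 over all regions. At day 10 it was 0 in the locus and -8.33 over all regions. Whether the locus differs from the rest of the series was not tested. When replicate 1, 2 or 4 of every group was left out, 1 region was lost at day 5 and 2 were gained at day 10, and without replicate 1 or 4, 1 region was lost at day 10. With 9 against 3 libraries no Fisher's exact p can fall under 0.00455.

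**Figure D2:**
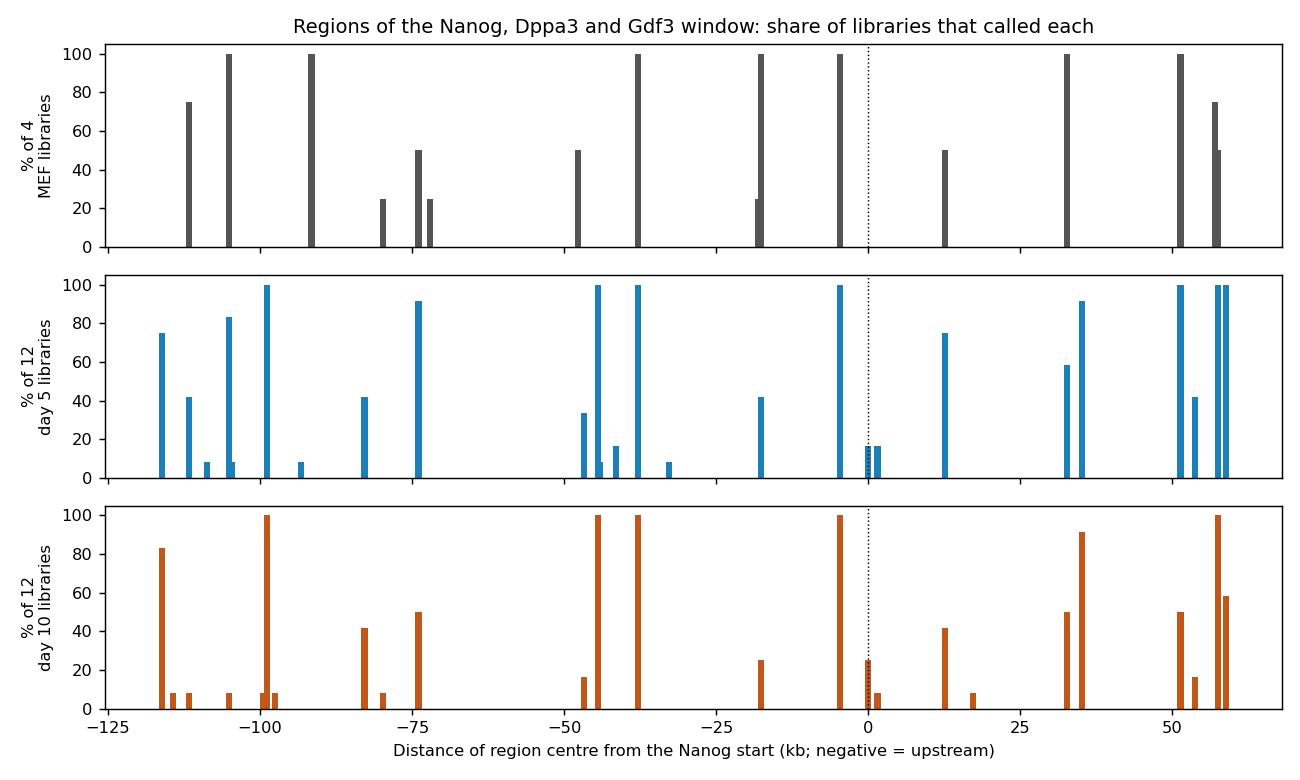
Share of libraries (percent) that called each of the 36 merged regions, for the 4 MEF, 12 day 5 and 12 day 10 libraries, at the distance of the region's centre from the Nanog start (dotted line). Regions 98.8 and 44.5 kb upstream stand at 100% at both later days and at 0 in MEFs, the region 91.5 kb upstream the reverse, and the start itself stays low throughout.

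A pair of regions was called in every reprogramming library and in no MEF library. The region 98.8 kb upstream of Nanog (122558380 to 122558951, 572 bp) had calls in 12 of 12 libraries of each later day, against 0 of 4 MEF libraries (Fisher's exact test, p = 0.000549 for each day, with an adjusted p of 0.00449 at day 5 and 0.00374 at day 10). The region 44.5 kb upstream (122612700 to 122613360, 661 bp) had the same counts and the same values. Both were called in all 4 libraries of each vector at each day, so no reprogramming group overlapped with MEFs. Over the whole series, 1.81% of regions were called in 24 of 24 reprogramming and 0 of 4 MEF libraries. Tet2-E replicate 4 of day 10, with a background pileup of 0.361, below the lowest MEF library at 0.394, called both. The part of depth in these calls was not tested.

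Within its own list, the peak 98.8 kb upstream had the higher fold of the pair in all but 2 of 24 libraries. The exceptions were Tet2-WT replicate 2 of day 10, with 8.04 at 98.8 kb and 8.24 at 44.5 kb, and empty vector replicate 1 of day 10, with 7.75 and 8.16. By the authors' fold of summit over local background it had 8.38 to 13.3 at day 5 (median 10.3) and 7.01 to 10.9 at day 10 (median 9.07). A median of 8.55% of a day 5 library's own peaks and 15.3% of a day 10 library's had a higher fold. The summit pileup there, inferred from fold and p, was 17 to 36 at day 5 and 10 to 25 at day 10. At 44.5 kb upstream the fold was 6.13 to 8.71 at day 5 (median 7.37) and 5.29 to 10.1 at day 10 (median 6.40). A median of 32.0% and 53.1% of the library's own peaks were higher, so this region was of ordinary strength in its lists although every reprogramming library called it. Lists differ in length and depth, so these ranks cannot be used to measure a change between days. Where peaks had to cover at least 50% of a region to count, the 98.8 kb region was called in 9 of 12 day 5 libraries (Fisher's exact, adjusted p = 0.0776) and 3 of 12 day 10 libraries (adjusted p = 0.677), against 0 of 4 MEF libraries each time. By that rule the 44.5 kb region was called in 10 of 12 day 5 libraries, against 0 of 4 MEF libraries (Fisher's exact, adjusted p = 0.0358), and in 6 of 12 day 10 libraries, against 0 of 4 (Fisher's exact, adjusted p = 0.385).

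Other gained regions were called less evenly. At 35.1 kb downstream (122692353 to 122692879), 11 of 12 libraries called the region at each later day, against 0 of 4 MEF libraries (Fisher's exact test, p = 0.00275 for each day, with an adjusted p of 0.0165 at day 5 and 0.0156 at day 10). The day 5 library that lacked it was Tet2-E and the day 10 library was empty vector. When every list was cut to the same number of top peaks, 7 of 12 day 5 libraries called it, against 0 of 4 MEF libraries (Fisher's exact, adjusted p = 0.205). The call also missed the threshold without replicate 1, 2 or 3 at day 5 (Fisher's exact, adjusted p from 0.0768 to 0.0833) and without replicate 1, 2 or 4 at day 10 (adjusted p from 0.0675 to 0.0775). By the coverage rule given above, the region was not gained at either day. Its peaks covered at most 328 of 527 bp at day 5 and 252 bp at day 10. With a −log10 q of 5 or more it was not gained at day 10. The highest −log10 q there was 3.85 in empty vector replicate 1 and 4.63 in Tet2-E replicate 4 of day 10. At 116.2 kb upstream (122541101 to 122541515), 10 of 12 day 10 libraries called the region, against 0 of 4 MEF libraries (Fisher's exact, adjusted p = 0.0292), and at day 5 the counts were 9 of 12 against 0 of 4 (adjusted p = 0.0678). The day 10 call was lost under 8 of 10 alternatives, leaving out any 1 replicate number among them, with Fisher's exact or stratified exact adjusted p from 0.0552 to 0.677 in those 8. At 58.8 kb downstream (122716230 to 122716469), 12 of 12 day 5 libraries called the region, against 0 of 4 MEF libraries (Fisher's exact, adjusted p = 0.00449). At day 10 it was called in 7 of 12 (adjusted p = 0.184), and day 10 against day 5 did not pass (exact conditional test, adjusted p = 0.381). With lists of equal length it was called in 8 of 12 day 5 libraries, against 0 of 4 MEF libraries (Fisher's exact, adjusted p = 0.19).

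The peaks of the locus that ranked highest in their own lists were MEF peaks. At 91.5 kb upstream (122565815 to 122566128, 314 bp), between the pair of gained regions, the 4 MEF libraries had folds of 22.4, 21.7, 20.5 and 18.9 and summit pileups of 54, 42, 46 and 40. Between 0.041% and 0.26% of a MEF library's own peaks had a higher fold. The region was called in 0 of 12 libraries at day 5 and 0 of 12 at day 10, against 4 of 4 MEF libraries (Fisher's exact test, p = 0.000549 for each day, with an adjusted p of 0.00449 at day 5 and 0.00374 at day 10). In the whole series 5.80% of regions were called in 0 of 24 reprogramming and in all 4 MEF libraries. This loss passed the test under each of the 10 alternatives, for both days.

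**Figure D3:**
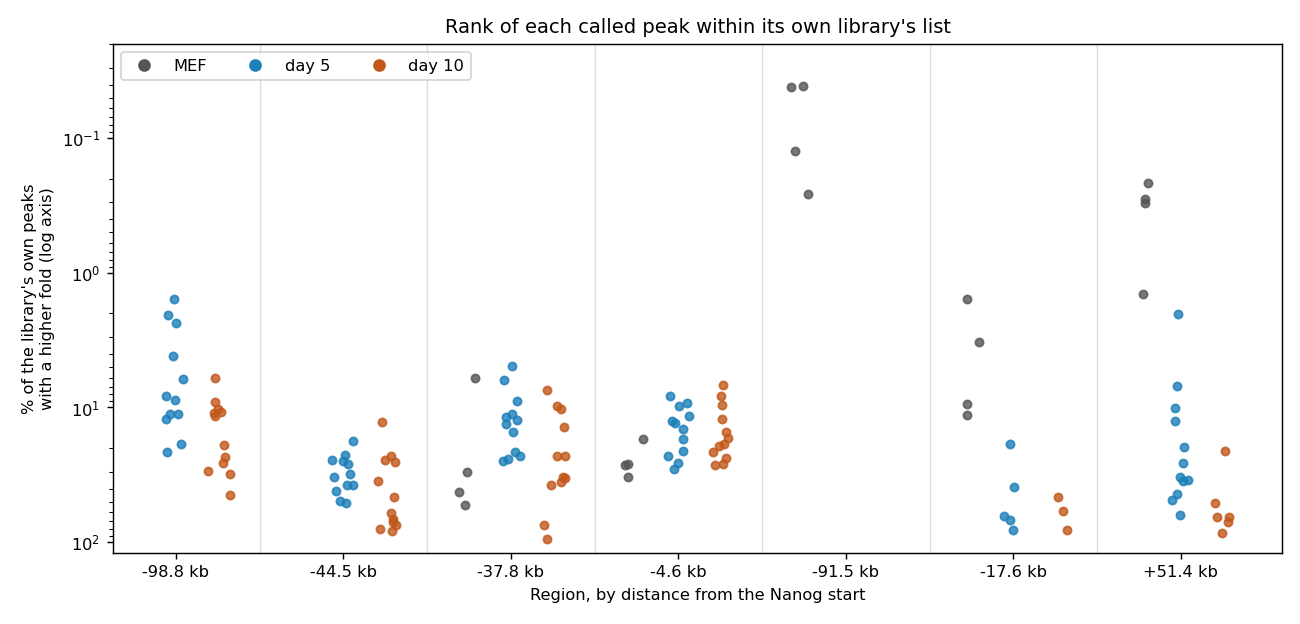
Percentage of a library's own peaks with a higher fold than its peak at 7 regions, on a log axis with the strongest peaks at the top; each dot is 1 library that called the region. The MEF peaks 91.5 kb upstream lie at 0.26% or less, while peaks 44.5 kb upstream, called by no MEF library, lie at 12.8% or more.

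A pair of other regions called in all 4 MEF libraries had fewer calls at day 10, of which the lower count 105.1 kb upstream passed against MEFs and that 51.4 kb downstream did not. Folds are given within each list and cannot be used to measure a change between stages. At 51.4 kb downstream (122708680 to 122709078) the MEF folds were 16.4 to 19.7, with 0.216% to 1.43% of the library's peaks higher. All 12 day 5 libraries called the region, at folds of 5.82 to 12.4, and 6 of 12 day 10 libraries did, at 5.25 to 8.51. The calls at day 10 did not pass against MEFs (6 of 12 against 4 of 4, Fisher's exact, adjusted p = 0.427) or against day 5 (exact conditional p = 0.0153, adjusted p = 0.226). Where peaks had to cover at least 50% of the region, 0 of 12 day 10 libraries called it, against 4 of 4 MEF libraries (Fisher's exact, adjusted p = 0.00444), beside 27.0% of regions lost by that rule. At 105.1 kb upstream (122552225 to 122552673) all 4 MEF libraries, 10 of 12 day 5 libraries and 1 of 12 day 10 libraries, Tet2-WT replicate 2, called the region (Fisher's exact test of day 10 against MEFs, adjusted p = 0.0156). Day 10 against day 5 fell just outside the threshold there (1 of 12 against 10 of 12, exact conditional p = 0.000729, adjusted p = 0.0507) and passed among regions in at least 4 libraries (adjusted p = 0.0404). The difference from MEFs also missed the threshold without replicate 1, 3 or 4 (Fisher's exact, adjusted p from 0.0769 to 0.079). With lists of equal length it was called in 0 of 12 day 10 libraries, against 2 of 4 MEF libraries (Fisher's exact, adjusted p = 0.137).

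Nearer to Nanog, the region 17.6 kb upstream (122639488 to 122640349) is given after its values were seen. MEF folds there were 16.3, 11.9, 14.8 and 11.5 in the strongest peak of each library. It was called in 5 of 12 day 5 libraries, against 4 of 4 MEF libraries (Fisher's exact, adjusted p = 0.198), and in 3 of 12 at day 10 (adjusted p = 0.0634), so the difference did not pass at either day. The strongest summits lay at -17581 to -17559 bp from the Nanog start in MEFs and at -17351 to -17186 bp at day 10. Of the day 10 libraries, only Tet2-WT replicate 2 had a peak over the MEF summits, so the day 10 count includes peaks beside them. At 57.1 kb downstream (122714424 to 122714687) a weak peak with folds of 5.25 to 5.43 was called in 0 of 12 libraries at each later day, against 3 of 4 MEF libraries (Fisher's exact, adjusted p = 0.0311 at day 5 and 0.0276 at day 10). The next region, at 57.6 kb (122714719 to 122715448), begins directly after it and was called in 12 of 12 libraries at each later day, against 2 of 4 MEF libraries (Fisher's exact, adjusted p = 0.129 and 0.117). When peaks were joined by their summits, both became a single region called in all 28 libraries. Joined in that way, the loss at 57.1 kb is not seen, although peaks of the 12 day 5 and 12 day 10 libraries covered 0 bp of the 57.1 kb region. The loss also missed the threshold without replicates 1, 2 or 4 of every group (Fisher's exact, adjusted p from 0.102 to 0.128).

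A pair of regions was called in all 28 libraries, 37.8 kb (122619443 to 122619882) and 4.6 kb (122652469 to 122653282) upstream of Nanog, beside 7.04% of regions of the series. At 37.8 kb the summits stayed in place, with medians at -37883.5 bp from the Nanog start in MEFs, -37882.5 bp at day 5 and -37881.5 bp at day 10. Folds there were 6.85 to 13.3 in MEFs, 7.90 to 11.3 at day 5 and 4.79 to 10.8 at day 10. Peaks there covered 141 to 428 bp in MEFs (median 320.5), 153 to 264 bp at day 5 (median 220) and 76 to 274 bp at day 10 (median 171). The medians were thus shorter at the later days, with overlapping ranges, and this was not tested.

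The region 4.6 kb upstream of Nanog was open in every library, but over a different length. MEF peaks covered 404, 351, 289 and 313 bp of its 814 bp. Day 5 libraries covered 639 to 772 bp (median 717) and day 10 libraries 554 to 768 bp (median 718), so neither range overlapped with that of MEFs. The share of all regions with such a separation in length was not counted, so it is not known whether this is unusual. On the side away from Nanog all libraries had a peak, covering a median of 352 of 407 bp at day 5 and 349.5 bp at day 10, against 297 bp in MEFs. On the side towards Nanog the medians were 368 bp at day 5 and 354.5 bp at day 10, against 13 bp in MEFs, where 2 of 4 libraries had none. Where peaks had to cover at least 50% of a region, a rule listed among the alternatives, 12 of 12 libraries of each later day called it, against 0 of 4 MEF libraries (Fisher's exact, adjusted p = 0.00563 at day 5 and 0.00444 at day 10). By that rule 4.55% of 85015 regions were gained at day 5 and 1.14% of 68923 at day 10. MEF replicate 1, with 404 bp, fell just short of the 407 bp needed. Both borders of the region were set by peaks of Tet2-WT libraries of day 10. The test therefore restates the lengths above and adds no separate evidence. Peaks over the whole genome went the other way in width, with library medians of 144 to 186 bp at day 5 and 135 to 169 bp at day 10, against 185 to 209 bp in MEFs. The local background around the region was 0.94 to 1.62 in MEF libraries, 2.64 to 3.60 at day 5 and 1.62 to 3.15 at day 10. These values were not scaled for depth, which differs between libraries. Whether the surroundings held more reads was not tested.

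**Figure D4:**
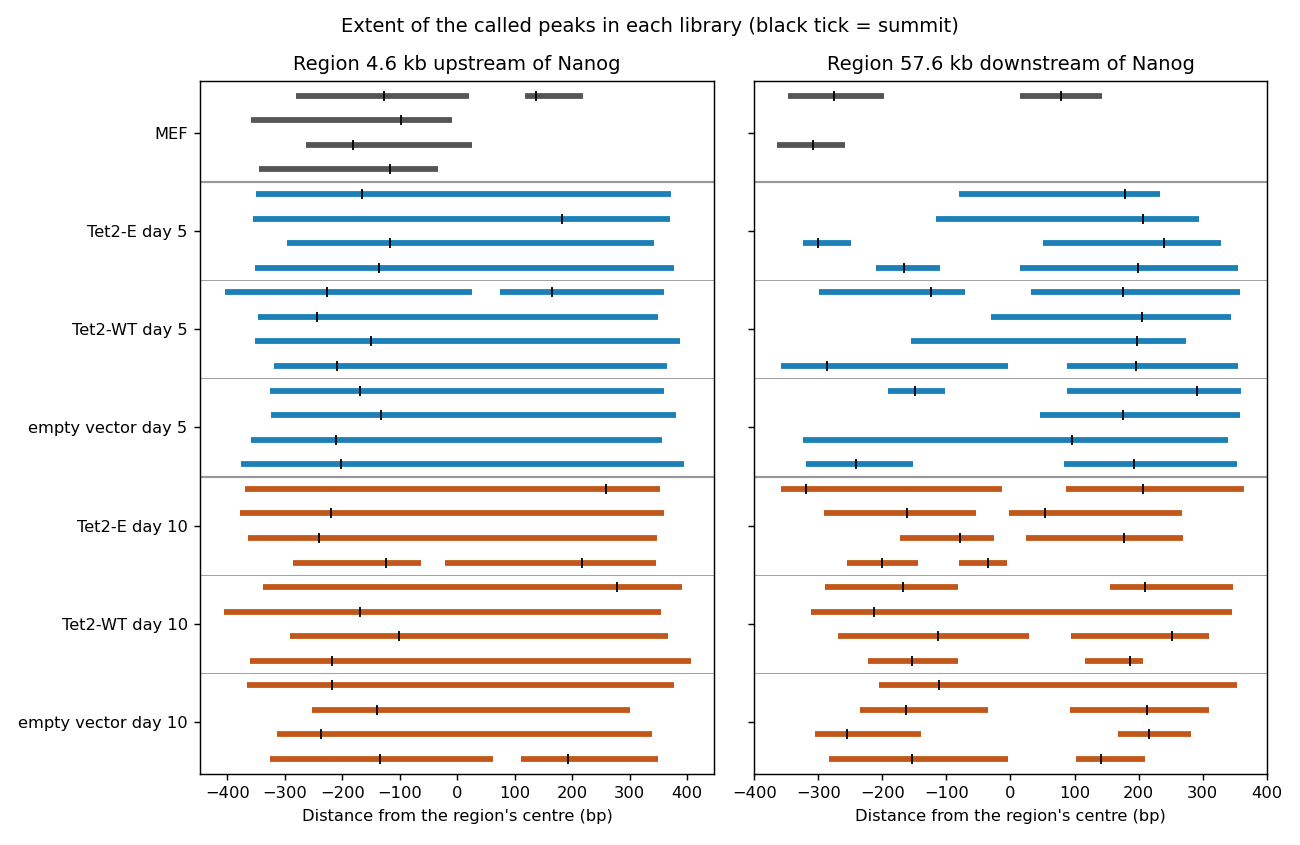
Extent of each called peak, with its summit, in the 28 libraries at the regions 4.6 kb upstream (left) and 57.6 kb downstream (right) of Nanog, in bp from the region's centre; grey is MEF, blue day 5, orange day 10. At 4.6 kb the MEF peaks stop near the centre, apart from a separate peak of 102 bp in replicate 1, and those of reprogramming cells run on towards Nanog.

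The Nanog start itself was rarely called. The region over it (122657401 to 122657594, 194 bp) was called in 0 of 4 MEF, 2 of 12 day 5 and 3 of 12 day 10 libraries. The calls came from Tet2-E replicates 2 and 3 at day 5, and from Tet2-E replicates 1 and 2 and Tet2-WT replicate 2 at day 10. Folds were 4.89 and 5.20 in the day 5 libraries, and 4.52 and 5.30 with Tet2-E and 5.73 with Tet2-WT at day 10. These are low in their lists, where 63.0% to 94.8% of peaks had a higher fold. The summit pileups were 20, 18, 17, 21 and 21 in that order, while the local background of 2.66 to 3.29 was well above the 0.587 to 0.919 found as the commonest value in the same libraries. The lowest summit pileup of any peak was 5 to 7 in the 28 lists, so every call at the start had a taller summit than the weakest peaks elsewhere. An absent call says that no peak was detectable at this depth. Counted over both days, 4 of 8 Tet2-E and 0 of 8 empty vector libraries called it (exact conditional test stratified by day, p = 0.0918, adjusted p = 1). Tet2-E against Tet2-WT, with 1 of 8, gave an exact conditional p of 0.296 and an adjusted p of 1. The day 10 libraries that called the start had background pileups of 0.768, 0.636 and 0.587, against 0.42 to 0.506 with the empty vector. At day 5 the callers had 0.919 and 0.792, against 0.746 to 0.881 with the empty vector. The part of depth in this split was not tested. A smaller region 1.6 kb downstream was called in 2 of 4 empty vector libraries of day 5 and in 1 of 4 Tet2-WT libraries of day 10.

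**Figure D5:**
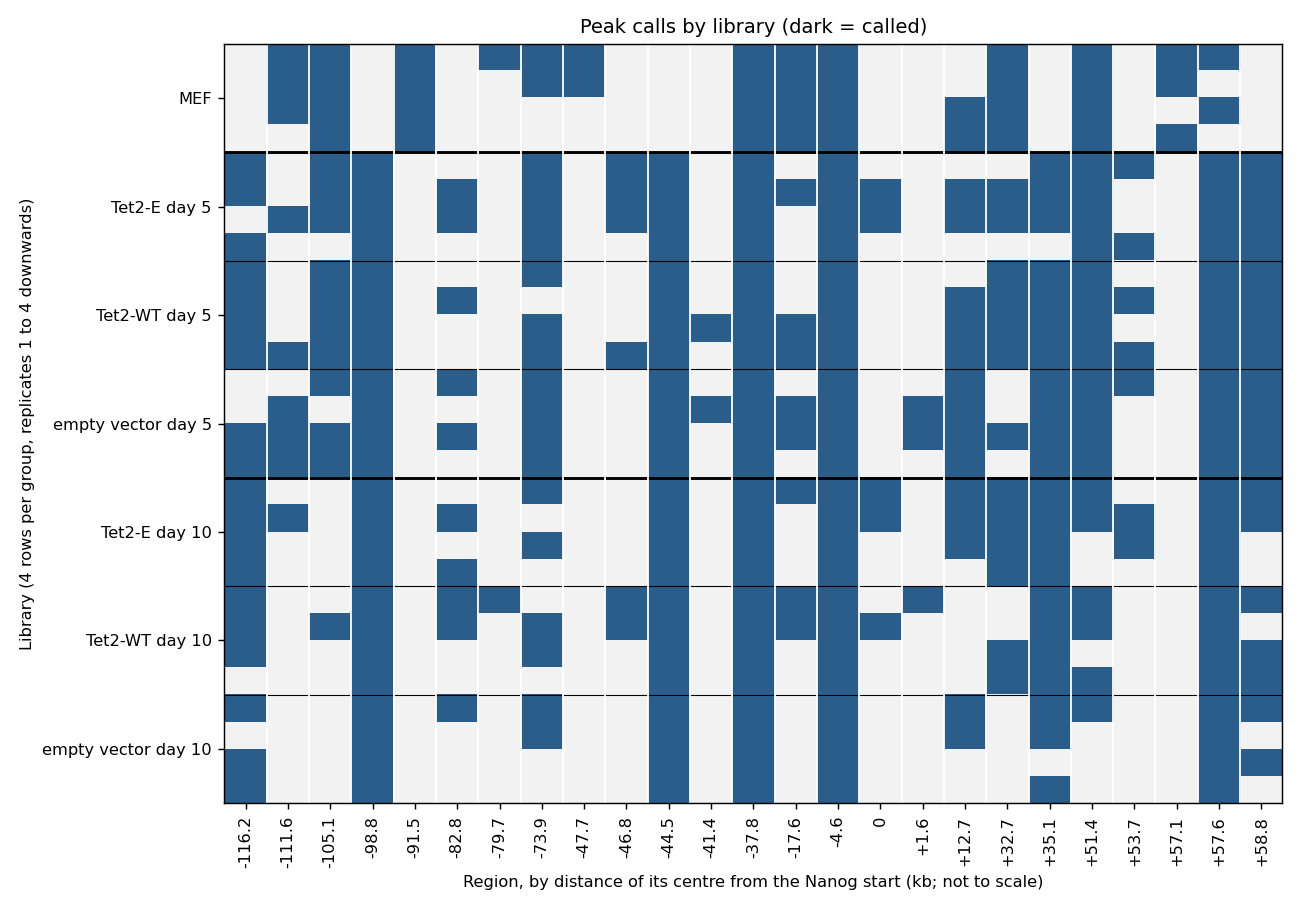
Peak calls (dark) of the 25 regions called in at least 2 libraries, in the 28 libraries; columns are regions by distance from the Nanog start in kb, rows are libraries, with thick lines between MEF, day 5 and day 10. The column at 0 is the Nanog start, with 5 calls in 28 libraries.

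Between day 5 and day 10 no region of the locus passed the test. Of 21 tested, 0 were gained and 0 lost (exact conditional test stratified by vector, lowest adjusted p = 0.0507), with 0 and 3 at an unadjusted p under 0.05. Over the series 0.144% were gained and 1.00% lost. The 3 regions were those 105.1 kb upstream, 51.4 kb downstream and 58.8 kb downstream, each called in fewer day 10 than day 5 libraries. Depth also fell between these days, and its part in them was not tested.

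No region of the locus passed the test between vectors. With days as strata, 0 of 20 tested regions passed for Tet2-WT against the empty vector, 0 of 20 for Tet2-E against the empty vector and 0 of 19 for Tet2-E against Tet2-WT (exact conditional tests, every adjusted p = 1). In the series as a whole 0% passed in each of these 3 comparisons. The lowest p of the series was 0.000408, for Tet2-WT against the empty vector (exact conditional test), and it did not pass after adjustment. A complete split between vectors at both days gives that p, so these tests could not have called any region of the locus. At an unadjusted p under 0.05 the counts in the locus were 1, 1 and 0. Tests that miss the threshold do not show that the vectors act alike.

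The region that differed most between vectors at day 10 lay 32.7 kb downstream of Nanog (122689991 to 122690316). It was called in 4 of 4 Tet2-E, 2 of 4 Tet2-WT and 0 of 4 empty vector libraries at day 10, and in 2, 4 and 1 of 4 at day 5 in the same order. All 4 MEF libraries called it too. Over both days this was 6 of 8 Tet2-WT against 1 of 8 empty vector libraries (exact conditional p = 0.0306, adjusted p = 1), and 6 of 8 Tet2-E against 1 of 8 empty vector libraries (p = 0.0469, adjusted p = 1). At day 10 it was the 1 region of the locus in 4 of 4 Tet2-E and 0 of 4 empty vector libraries, as were 0.105% of regions in the series. None of the other 5 complete splits between vectors at day 10 occurred in the locus. In the series, 0.107% were in 0 of 4 Tet2-E and 4 of 4 empty vector libraries, 0.267% in 4 of 4 Tet2-WT and 0 of 4 empty vector libraries, and 0.0719% the reverse of that. Between the enzymes, 0.0670% were in 4 of 4 Tet2-E and 0 of 4 Tet2-WT libraries, and 0.138% the reverse. The Tet2-E libraries at day 10 had background pileups from 0.361 to 0.768, and the empty vector libraries lay within that range, from 0.42 to 0.506. Folds were 5.81 to 7.78 in the 6 day 10 libraries that called it. The next regions by this measure were 12.7 kb downstream (122670025 to 122670288), in 3 of 4 Tet2-E, 0 of 4 Tet2-WT and 2 of 4 empty vector libraries at day 10, and the region at 51.4 kb, in 2, 3 and 1 of 4. Neither passed in any comparison of vectors (exact conditional tests, adjusted p = 1). The difference of 2 libraries at 51.4 kb also held 46.8 and 17.6 kb upstream, at the Nanog start and 53.7 kb downstream. Of these tied regions, that at 51.4 kb was taken for the highest median fold, to which its MEF peaks contribute. At day 10, 2 Tet2-WT libraries alone called the 46.8 kb region and 2 Tet2-E libraries alone the 53.7 kb region.

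The remaining regions passed in no comparison. Of the 25 called in at least 2 libraries, 11 fell outside the rule for full description, 3 of them given above. Among the others the region 73.9 kb upstream was called in 2 of 4 MEF, 11 of 12 day 5 and 6 of 12 day 10 libraries, and that 111.6 kb upstream in 3, 5 and 1. The region 82.8 kb upstream was called in 0, 5 and 5, that 53.7 kb downstream in 0, 5 and 2, and that 46.8 kb upstream in 0, 4 and 2. At 47.7 kb upstream 2 MEF libraries alone called a region, at 41.4 kb 2 day 5 libraries did, and at 79.7 kb 1 MEF and 1 day 10 library. The 11 regions called in 1 library had folds of 4.17 to 9.63, with 2 of them in MEFs, 5 at day 5 and 4 at day 10.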

How the data were processed

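Peaks were called by the authors with MACS2, in 1 list per library on build mm9. Bowtie2, SAMtools and bedtools are also named in the submitters' processing notes, while their versions and settings, with any shift of the reads, are not given in the sources used. The deposited columns are the fold (ratio) of a summit over the local background of its own library, its −log10 p and −log10 q, and a score that is the −log10 q times 10, all per the values and the file format. Such values were used within a list only, since depth differs between lists. Read totals were not used here. Summit pileups and local backgrounds were inferred from the deposited fold and p under the caller's Poisson model, which gave whole numbers for 100% of peaks within 0.0002 in −log10 p.

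Peaks of chromosomes 1 to 19 and X were merged where they overlapped by 1 bp. Regions in at least 2 of the compared libraries were tested over the whole series in Python 3.11.15 with scipy 1.17.1. Later days were set against MEFs by 2-sided Fisher's exact tests, and days and vectors by exact conditional tests stratified by vector or day, with Benjamini-Hochberg adjustment over all regions tested and a threshold of 0.05. The tests were checked on simulated calls. Members, lists and tests were chosen with earlier results of these data known. Described in full were regions past the threshold, those in all 28 libraries, that nearest the Nanog start and the 3 that differed most between vectors at day 10, ties going to the higher median fold. Marker genes, other pluripotency loci and the Tet2 deletion were not analysed here, since no mm9 annotation was used. No pair of libraries held identical lists (0 pairs). Alternatives are given in the closing section.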

Additional observations from a re-analysis of the deposited data

Results flagged for a closer look

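The length covered by peaks at the regions called in all 28 libraries, and the totals over the locus, were searched for a library far from the others of its group, in 28 groups of 4 values; chance flags about 1 in 20 groups. At 4.6 kb upstream of Nanog, Tet2-E replicate 3 of day 5 covered 639 bp, below the 723 to 730 bp of the others of its group. At 37.8 kb upstream, Tet2-WT replicate 1 of day 5 covered 209 bp, below the 256 to 264 bp of the others.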

How the results depend on the processing

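The gains at 98.8 and 44.5 kb upstream and the loss at 91.5 kb passed under all 10 alternatives, except that with the coverage rule the first missed at both days and the second at day 10. By day 5, 4 regions were gained and 2 lost. The rule that peaks span 50% or more of a region gave 2 gained, those 44.5 and 4.6 kb upstream, the latter not among the 4. The number lost was 1 with a −log10 q of 5 or more, among regions in at least 4 libraries, with peaks joined by summit, and with the replicate block. By day 10, 4 were gained and 3 lost. With a −log10 q of 5 or more 2 were gained. With the coverage rule 1 was gained, the region 4.6 kb upstream, and none of the 4 passed. Between the days 1 region was lost among regions in at least 4 libraries, against 0. Without each replicate number in turn, 3 to 4 regions were gained and 1 to 2 lost by day 5, and 2 to 3 gained and 1 to 2 lost by day 10. The vector comparisons gave 0 throughout. Deviations of same-numbered libraries of different groups correlated at -0.0185 to 0.0902, with none of 84 pairs over 0.1, so the numbers were not taken to pair them. As a hint from the data, 17 of 28 libraries correlated best with their own number, and the highest correlation between other numbers was 0.0488. A region without a call may lie under the depth of its library, and which regions this touches was not tested. The causes of these changes were not tested.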
